A study of Mus musculus with 4 samples.

Results

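Colonies grown from mouse short-term haematopoietic stem cells (ST-HSCs) in 4-hydroxytamoxifen (4OHT) were compared with colonies from the same kind of cell grown in ethanol, the solvent of 4OHT. The comparison takes every gene of the table averaging 1 normalized count or more over the 4 libraries of the series, which kept 11370 of 14323 genes (79.4%). All cells came from C57BL/6 mice, and 100 cells were plated in 1 ml of 1% methylcellulose with SCF at 25 ng/ml and IL-6, IL-3 and GM-CSF at 10 ng/ml each. Colonies were collected after 5 to 7 days, and 200 ng of total RNA entered a strand-specific library after rRNA depletion. In the labels, the culture with 0.05 µM 4OHT carries conditional expression of MLL-ENL and the ethanol culture is the control, so the fusion and the drug came together. An effect of 4OHT itself and an effect of the fusion cannot be told apart with these groups. The other 2 libraries, MPP2 cells (multipotent progenitors) under the same 2 conditions, serve here only as a side-by-side reading.

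MLL-ENL is a leukaemia fusion that joins the chromatin-binding front of the histone methyltransferase MLL (gene Kmt2a) to the elongation factor partner ENL (gene Mllt1). Such fusions are known for holding HOXA and MEIS1 genes active in blood progenitors and for extending their self-renewal in culture. ST-HSCs normally feed every blood lineage, but not for life, and the cytokines used here favour granulocytes, macrophages and mast cells, so colony RNA comes from a mixture of progenitors and their maturing offspring. In such bulk RNA, fewer cells of a type and less RNA per cell cannot be told apart.

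Each side was 1 library, with 14317891 reads for ethanol and 13647704 for 4OHT, so no difference has a replicate check and no p-value is given. Levels are normalized counts, pairs of levels are in the order ethanol then 4OHT, and a log2 difference is 4OHT minus ethanol after adding 0.5 to both levels. The ratio of the levels themselves is followed by its exact 95% interval, which covers counting error only and not the variation between cultures. A gene counts as 2-fold higher or lower when its log2 difference reaches 1 or -1. The ribosomal precursor Rn45s took 6.75% of reads with ethanol and 7.10% with 4OHT, and log2 differences had a Spearman correlation of 0.179 with GC content over 11289 genes, with a median of -0.10 in the GC-poorest quintile of genes.

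Most genes were close to level. The median log2 difference over 11370 genes was -0.0037 with an SD of 0.38, and 91.8% of genes lay within 1.5-fold. Larger differences leaned upward: 239 genes (2.10%) were at least 2-fold higher with 4OHT and 62 (0.545%) at least 2-fold lower, and 45 and 8 of these passed 4-fold. The counting interval of every one of these ratios excluded 1, yet for only 134 of the higher and 13 of the lower genes did it lie wholly beyond 2-fold. Both kinds of difference were commoner among weakly expressed genes. Of 1850 genes averaging 1 to 5 normalized counts, 114 were at least 2-fold higher (6.16%) and 32 lower (1.73%), while among 2154 genes at 100 or more 7 were higher (0.325%) and 4 lower. Over 50% of the transcript sequence was shared with another gene for 12 of the higher and 8 of the lower genes, and those values are uncertain.

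**Figure D1:**
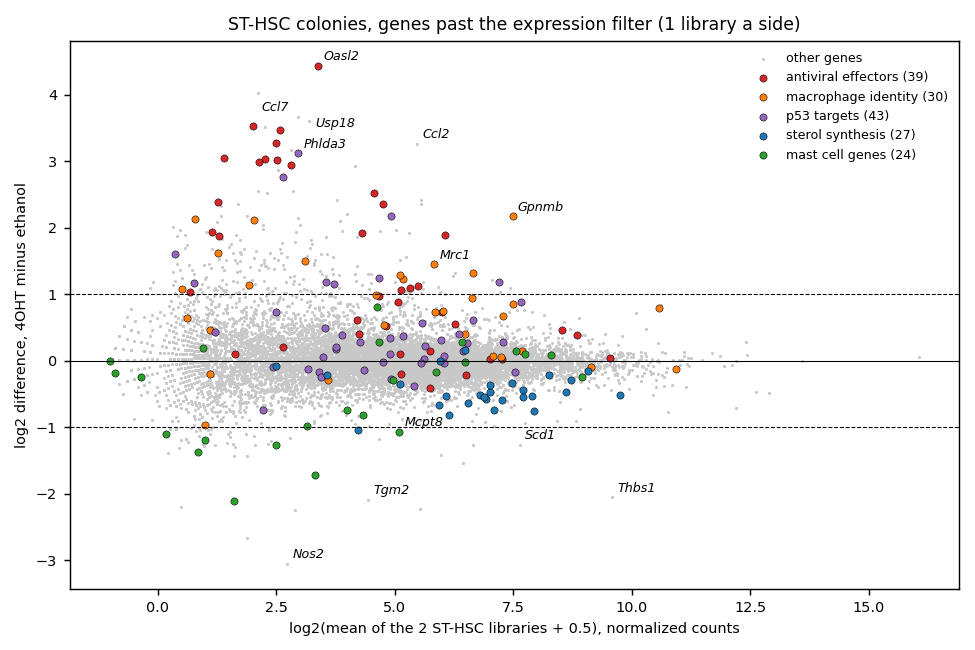
Each point is 1 gene past the expression filter, placed by its mean level in the ST-HSC libraries (x axis, log2 of normalized counts plus 0.5) and its log2 difference, 4OHT minus ethanol (y axis), with dashed lines at 2-fold. Antiviral effectors (red), macrophage genes (orange) and p53 targets (purple) reach far above the upper line, and sterol synthesis (blue) lies as a band just below 0.

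Differences were described through 74 gene lists, of which 68 had at least 5 members past the filter and 29 had no member beyond 2-fold. The lists held 119 of the 239 higher genes and 22 of the 62 lower ones. Beside each list median, the median over all genes of -0.0037 and the 49.3% of all genes above 0 serve as the background. For counts of intervals above or below 1, the background is that the interval included 1 for 61.2% of all genes. Intervals that exclude 1 were thus common.

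**Figure D2:**
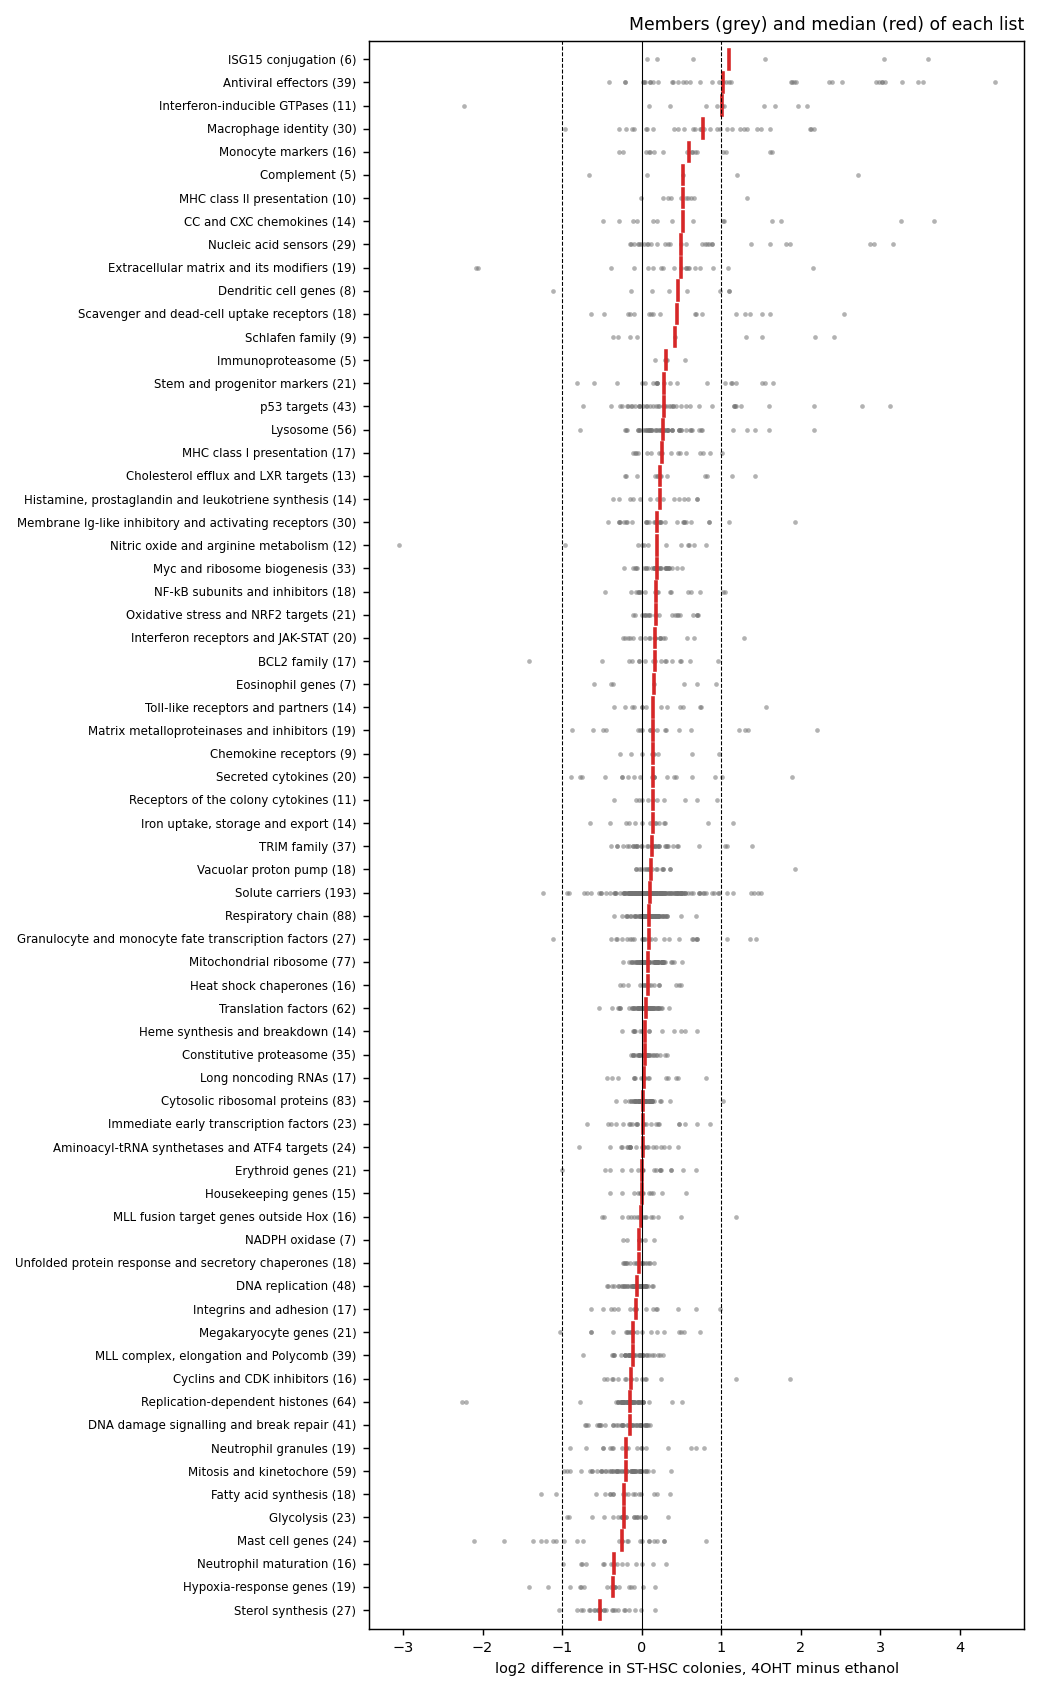
Each grey point is the log2 difference (x axis) of 1 gene of a list (y axis, with the number of members past the filter), and the red bar is the median of the list. The ISG15, antiviral effector and inducible GTPase lists have the highest medians, between 1.02 and 1.10, and sterol synthesis is lowest at -0.52.

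The labelled cells were checked against fixed markers of the cell types such colonies can hold. Neutrophil markers were plentiful in both libraries, summing to 32380 normalized counts in the ethanol library and 24105 in the 4OHT library, and 0 of 8 measured markers were higher with 4OHT. Macrophage markers summed to 244 and 432 normalized counts, and all 9 measured were higher with 4OHT, though the complement genes C1qb and C1qc stayed under 1 normalized count in both. Monocyte markers summed to 1618 and 1778, with 4 of 5 higher. Stem and progenitor markers summed to 130.3 and 198, with 5 of 7 higher. Of these, Ly6a, also described below among antiviral effectors, had 27.8 and 61.4 normalized counts, and Mecom had only 1 and 6 reads. Slamf1, a marker of the most primitive stem cells, had 0 reads in both libraries. Mast cell markers summed to 105.4 and 107.7, with 1 of 7 measured higher, Kit, which is also a progenitor marker (76.4 and 92.9). Of their protease genes, Mcpt4 and Tpsb2 had 0 reads in both libraries and Cma1 1 and 0, while Cpa3 had 19.5 and 11.5 normalized counts. Basophil markers summed to 62.1 and 27.3, with 1 of 3 higher. Erythroid markers summed to under 1 normalized count in both libraries, with Hba-a2, Hbb-b1 and Slc4a1 at 0 reads. The shift from neutrophil toward macrophage markers moves with many of the lists that follow, and its part in them was not tested.

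The highest list medians were those of the interferon response. Type I interferons are secreted proteins that bind a receptor pair on the cell surface, and through JAK kinases and a complex of STAT proteins with IRF9 they switch on many antiviral genes. That complex binds a short DNA element, the interferon-stimulated response element (ISRE). Its core, searched as GAAANNGAA on both strands, was looked for in the 250 bases before the RefSeq start (build GRCm38.p6) of the 8694 genes past the filter that have an entry. The core was present before 667 of these genes (7.67%). It was present before 39 of 173 genes at least 2-fold higher (22.5%) and 2 of 44 genes at least 2-fold lower (4.55%). By list, it was found for 11 of 28 antiviral effectors, 8 of 9 inducible GTPases and 4 of 8 Schlafen genes. A match is a description of the letters, not a bound site. The 5 stretches here belong to named genes that were at least 2-fold higher, and they are read 5′ to 3′ on the strand of the gene, with the matches in capitals.
Oas1a (chr5:120907526-120907569, minus strand): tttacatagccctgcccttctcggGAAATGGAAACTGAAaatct
Oas3 (chr5:120777690-120777758, minus strand): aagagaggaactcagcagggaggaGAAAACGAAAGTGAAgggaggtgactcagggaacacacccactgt
Rsad2 (chr12:26456533-26456601, minus strand): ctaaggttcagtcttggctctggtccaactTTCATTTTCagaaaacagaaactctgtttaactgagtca
Bst2 (chr8:71537558-71537626, minus strand): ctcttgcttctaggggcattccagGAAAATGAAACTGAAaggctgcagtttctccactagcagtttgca
Igtp (chr11:58199492-58199555, plus strand): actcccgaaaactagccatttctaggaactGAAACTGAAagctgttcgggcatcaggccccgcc

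In Oas1a, Oas3 and Bst2 overlapping cores form 1 longer run, Igtp has a single core, and the Rsad2 match is on the opposite strand. Slfn5, also named and at least 2-fold higher, had 2 separate matches, 1 on each strand, and its stretch is not printed.

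No interferon gene itself could be followed: of the ligand list only 1 gene was in the table, and it did not pass the filter. The receptors and their signalling chain moved little, with a median of 0.17 over 20 genes. The receptor subunit gene Ifnar1 had 74.1 and 90.6 normalized counts, and the kinase gene Jak1 had 242 and 225. Irf9, the DNA-binding part of the STAT complex, was the only member at least 2-fold higher, with 7.79 and 19.8 normalized counts (2.54-fold, 2.03 to 3.19). The feedback inhibitors Socs1 and Socs3 stood at 15.8 and 23.7 and at 34.6 and 55 normalized counts, with both intervals above 1.

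Sensors of foreign nucleic acid were higher as a group, with 7 of 29 at least 2-fold higher, none lower and 23 of 29 above 0 (median 0.50). The difference lay in the sensors and less in the adaptors behind them. All 8 RNA sensors were above 0 (median 0.81), and DNA sensors had a median of 0.69, while 11 adaptors and relays had 0.08. Of these 11 adaptors and relays, 1 was at least 2-fold higher, at log2 2.92. Zbp1, a sensor of left-handed nucleic acid that can trigger cell death, went from 3.69 to 14.3 normalized counts (3.88-fold, 2.85 to 5.36). Ifi203, of the interferon-inducible DNA-binding family, went from 4.52 to 17.8 (3.94-fold, 2.99 to 5.26), with 21.6% of its sequence shared. Samhd1, which degrades nucleotides that viruses need, went from 116 to 143 normalized counts, and the adaptor gene Myd88 from 111 to 142. Not every sensor took part: the DNA sensor genes Aim2 and Mb21d1, chosen after their values were seen, had log2 differences of -0.01 and -0.14.

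Among antiviral effectors, which block viral replication inside the cell, 20 of 39 genes were at least 2-fold higher, 0 were lower and 36 of 39 were above 0, with a median of 1.03. The oligoadenylate synthetases, which make a messenger of antiviral defence from ATP, stood out by level. Oas3 had 8.28 and 44.6 normalized counts (5.39-fold, 4.43 to 6.62). Oas1a had 6.47 and 39.6 (6.12-fold, 4.91 to 7.71), but 68.8% of its sequence is shared with sister genes, so reads may be split among them. Bst2, the tether that holds budding viruses to the cell, went from 25 to 54.1 (2.16-fold, 1.9 to 2.46), and the surface protein gene Ly6a, also a stem cell marker, from 27.8 to 61.4 (2.21-fold, 1.96 to 2.49). The interferon-inducible transmembrane genes were close to level at high expression: Ifitm1 had 733 and 754 normalized counts, a log2 difference of 0.04. The genes furthest up were those nearly silent with ethanol. With the filter raised to 5 normalized counts, the median of antiviral effectors was 0.61, that of inducible GTPases 0.58 and that of nucleic acid sensors 0.33.

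The ubiquitin-like protein ISG15 is joined to target proteins by a short enzyme chain. The ligand gene Isg15, chosen after its values were seen, had 11 and 139 reads, a log2 difference of 3.05. The removing enzyme gene Usp18 had a log2 difference of 3.60, but the activating enzyme gene Uba7 stayed at 30.3 and 31.9 normalized counts (1.05-fold, 0.92 to 1.2) and the ligase gene Trim25 at 121 and 139. The ligase gene Herc6 had 10.5 and 16.7 (1.59-fold, 1.29 to 1.96). Over the 6 genes past the filter the median was 1.10, and it was 0.64 with a mean of at least 5 required.

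Inducible GTPases attack membranes around intracellular microbes, and 6 of 11 were at least 2-fold higher (median 1.02). Igtp went from 6.68 to 14 normalized counts (2.1-fold, 1.64 to 2.71), Irgm1 from 14 to 27.5 (1.96-fold, 1.65 to 2.34) and Irgm2 from 6.12 to 11.1 (1.82-fold, 1.39 to 2.39). Those 3 are immunity-related GTPases of the same family and moved by similar amounts, but the highest log2 difference in the list was 2.08. The guanylate-binding genes that were at least 2-fold higher were weakly expressed, and Gbp2, chosen after its values were seen, had 1.6 and 5.61 normalized counts. Gvin1 went the other way, from 76 to 15.7 normalized counts (4.83-fold lower, 4.17 to 5.61), but nearly all of its sequence occurs in other genes.

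The Schlafen genes, a cluster of growth-regulating and antiviral genes, split in the middle. Slfn5 went from 3.82 to 22.6 normalized counts (5.92-fold, 4.43 to 8.03), Slfn1 from 4.73 to 14.4 (3.04-fold, 2.3 to 4.06) and Slfn4 from 9.81 to 25.1 (2.56-fold, 2.1 to 3.13). Slfn2, which had the most reads of the family, was only modestly higher at 153 and 204 normalized counts (1.34-fold, 1.26 to 1.41), and 4 of 9 members were below 0, none of them 2-fold. In the TRIM family of ubiquitin ligases 3 of 37 were at least 2-fold higher and the median was 0.13. Trim30a, which restrains NF-kB signalling, had 24.1 and 50.2 normalized counts (2.08-fold, 1.83 to 2.38), while Trim28, a silencer of retroelements, had 307 and 344.

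Antigen presentation was higher by smaller steps. MHC class I carries peptides cut by the proteasome to the cell surface, and all 7 measured heavy chain and related genes were above 0 (median 0.46). Nlrc5, the regulator that switches these genes on, went from 7.79 to 16.2 normalized counts (2.09-fold, 1.66 to 2.64) and was the only member of the class I list at least 2-fold higher. The peptide transporter gene Tap1 went from 30.8 to 53 (1.72-fold, 1.53 to 1.94) and the light chain gene B2m from 246 to 363 (1.47-fold, 1.41 to 1.54). The general chaperones of the same pathway were level, with Calr at 2149 and 2259 and Canx at 929 and 881 normalized counts.

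Subunits and activators of the immunoproteasome, the form of the proteasome that interferon induces, were all above 0, 5 of 5, with a median of 0.31. Psmb10 had 23.6 and 34.8 normalized counts (1.47-fold, 1.28 to 1.7), Psmb8 50.8 and 63.2 (1.24-fold, 1.13 to 1.37) and Psme2 70.7 and 88.8 (1.25-fold, 1.15 to 1.36). For Psmb9, at 10.7 and 13.2, the interval of the ratio (0.991 to 1.54) included 1. The constitutive proteasome had a median of 0.05 over 35 genes, none beyond 2-fold.

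MHC class II, which shows ingested material to helper T cells and marks macrophages, B cells and dendritic cells, had a median of 0.52, with 9 of 10 above 0. The protease gene Ctss, which trims the invariant chain, went from 43.7 to 110.0 normalized counts (2.52-fold, 2.29 to 2.77). The beta chain gene H2-Eb1 went from 17.8 to 28.5 (1.6-fold, 1.36 to 1.88) and H2-DMa, a peptide-loading factor, from 18.8 to 29.2 (1.55-fold, 1.33 to 1.82). The 3 intervals lie above 1, and only that of Ctss lies above 2.

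Signals that recruit monocytes were higher. Of the chemokine list 6 of 14 were at least 2-fold higher and none lower (median 0.52). Beyond Ccl2 and Ccl7, at log2 3.27 and 3.67, Cxcl10, an interferon-induced chemokine for T cells, went from 3.89 to 14.3 normalized counts (3.67-fold, 2.72 to 5.03). Ccl9, made by myeloid cells, went from 97.3 to 201 (2.06-fold, 1.93 to 2.2) from a much higher start. Ccl6 had 426 and 557 normalized counts (1.31-fold, 1.26 to 1.35). Ccl3 stood lower with 4OHT, at 211 and 173 (1.22-fold lower, 1.15 to 1.28). Their receptors moved less: 0 of 9 reached 2-fold, with the CCL2 receptor gene Ccr2 at 34.4 and 53.5 (1.55-fold, 1.38 to 1.74) and Cxcr4, which retains progenitors and neutrophils in marrow, at 299 and 248 (1.21-fold lower, 1.15 to 1.26).

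Of the secreted cytokines, 2 of 20 were at least 2-fold higher (median 0.15). Il1rn, the antagonist of interleukin 1, went from 44.1 to 89.2 normalized counts (2.02-fold, 1.84 to 2.23), and Il1a, an agonist of the same receptor, from 5.15 to 10.2 (1.98-fold, 1.49 to 2.66). Csf1, which encodes the macrophage growth factor M-CSF, had 24 and 37.4 (1.56-fold, 1.36 to 1.79), and Spp1 (osteopontin) 597 and 792 (1.33-fold, 1.29 to 1.37). The angiogenic factor gene Vegfa was lower, at 64.7 and 37.6 normalized counts (1.72-fold lower, 1.54 to 1.92). Receptors of the cytokines in the medium were slightly higher, 8 of 11 above 0: Kit, the SCF receptor gene, had 76.4 and 92.9, the shared IL-6 receptor chain gene Il6st 30.8 and 50.2 (1.63-fold, 1.44 to 1.84), and Csf2rb, the shared IL-3 and GM-CSF chain gene, 694 and 733.

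Pattern-recognition and NF-kB genes showed a few members well above the rest. Cd180, a Toll-like receptor relative, went from 6.05 to 18.8 normalized counts (3.11-fold, 2.43 to 4.01), Tlr2 from 128 to 213 (1.66-fold, 1.57 to 1.76) and Tlr13 from 25.2 to 42.6 (1.69-fold, 1.48 to 1.93). The partner Unc93b1, which escorts nucleic acid-sensing receptors, was level at 155 and 155, and the list median was 0.15, which was 0.03 with a mean of at least 5 required and 0.25 with the GC trend removed. In the NF-kB list, Relb went from 5.63 to 12.2 (2.17-fold, 1.66 to 2.86) and the adhesion gene Icam1, a classical target, from 25.7 to 52.7 (2.05-fold, 1.81 to 2.33). The inhibitor gene Tnfaip3 had 34.5 and 57.9 normalized counts (1.68-fold, 1.5 to 1.88), whereas the inhibitor gene Nfkbia had 142 and 159.5, and the list median was 0.18.

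Complement genes past the filter numbered 5. C3, the hub of the cascade, was nearly level at 1238 and 1301 normalized counts. C3ar1, the receptor for the C3 fragment, went from 10.6 to 24.9 (2.35-fold, 1.94 to 2.87) and properdin (Cfp), which stabilizes the alternative pathway, from 134 to 193 (1.44-fold, 1.36 to 1.53). Cd55, which dissolves the convertases, was lower at 5.98 and 3.59 (1.66-fold lower, 1.16 to 2.41). Of the acute-phase genes, Saa3 went from 16 to 62.2 normalized counts (3.89-fold, 3.36 to 4.51), Hp (haptoglobin) from 327 to 413, and Lcn2, an iron-trapping protein of neutrophil granules, was lower at 853 and 742 (1.15-fold lower, 1.12 to 1.18).

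Macrophage identity genes were higher together, 11 of 30 at least 2-fold, 0 lower, with 25 of 30 above 0 (median 0.77). This list overlaps the macrophage markers whose sum was 1.77 times as high with 4OHT. Trem2, a lipid-sensing receptor of tissue macrophages, went from 4.03 to 12.3 normalized counts (3.05-fold, 2.25 to 4.18), and Clec4n (dectin-2), a receptor for fungal sugars, from 57.1 to 144 (2.52-fold, 2.32 to 2.74). The integrin gene Itgax, found on macrophages and dendritic cells, went from 16 to 32.1 (2.01-fold, 1.71 to 2.37), and lysozyme (Lyz2) from 1113 to 1924 (1.73-fold, 1.69 to 1.76). Not all genes shared with neutrophils followed as Lyz2 did. The integrin gene Itgam had 588 and 550.3 normalized counts (68.1% of its sequence shared), and the chitinase-like gene Chil3 had 2056 and 1890.3. Arg1, a gene of alternatively activated macrophages chosen after its values were seen, was low and lower still with 4OHT, at 2.16 and 0.862.

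Of the monocyte genes, 4 of 16 were at least 2-fold higher (median 0.60). Ms4a6c, a membrane protein of monocytes, went from 5.35 to 17.4 normalized counts (3.25-fold, 2.5 to 4.25), and S100a4, a calcium-binding protein, from 40.2 to 82.6 (2.05-fold, 1.86 to 2.27), with 49.2% of its sequence shared. The abundant monocyte genes were near level: Ly6c2 had 868 and 926 and Plac8 674 and 750.4. Among transcription factors of this fate, Irf8 had 25.7 and 42.1 normalized counts (1.64-fold, 1.43 to 1.87), Klf4 10.3 and 16.3 (1.59-fold, 1.28 to 1.96) and Zeb2 58.8 and 81.9 (1.39-fold, 1.27 to 1.52). The granulocyte regulator Gfi1 stood at 153 and 129 (1.19-fold lower, 1.12 to 1.27), and Spi1 (PU.1), needed for both fates, at 319.9 and 328.

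Receptors for debris and dying cells had 6 of 18 at least 2-fold higher and a median of 0.45, which became 0.18 with the filter raised to 5. The scavenger receptor gene Msr1 went from 12 to 30.2 normalized counts (2.52-fold, 2.11 to 3.03), and Mfge8, a bridge between dying cells and phagocytes, from 28.9 to 66.5 (2.3-fold, 2.05 to 2.59). Lrp1, a large endocytic receptor, went from 158 to 268 (1.7-fold, 1.61 to 1.79), and the integrin gene Itgb5 from 15.5 to 25.2 (1.63-fold, 1.37 to 1.93). Its relative Itgb3 was lower, at 67.2 and 43.2 (1.56-fold lower, 1.4 to 1.72), and the HDL receptor gene Scarb1 had 318 and 282.

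Lysosomes, where ingested material is broken down, were represented by 56 genes, of which 48 were above 0 and 5 at least 2-fold higher (median 0.27). The shift was similar in hydrolases (35 of 40 above 0, median 0.26) and in membrane proteins and regulators (median 0.28). The protease gene Lgmn went from 9.53 to 26.5 normalized counts (2.78-fold, 2.28 to 3.41). Slc11a1, a metal pump of phagosomes, went from 4.38 to 10.3 (2.36-fold, 1.75 to 3.23). The 2 members of the list with the highest counts were higher too: Ctsd went from 1059.7 to 1473 and Psap from 819.5 to 1349 (1.65-fold, 1.61 to 1.69). The vacuolar proton pump that acidifies lysosomes had a median of 0.11, and its 1 member beyond 2-fold was Atp6v0d2, a subunit known from macrophages and osteoclasts, at 2.64 and 11.5 (4.35-fold, 3.04 to 6.37). The core subunit gene Atp6v1a was level at 345 and 344 normalized counts. The CLEAR element core, TCACGTGA on either strand, was found before 5 of 46 lysosome genes (10.9%) and before 1.91% of all genes.

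Genes that handle iron, haem and oxidative stress were higher in part. Of 14 iron genes, 9 were above 0 and 1 reached 2-fold (median 0.14). Ferritin heavy chain (Fth1), the iron store, went from 1132 to 2014 normalized counts (1.78-fold, 1.75 to 1.81), and the light chain gene Ftl1 from 4918 to 5992. The transferrin receptor gene Tfrc, which brings iron in, was lower at 708 and 538 (1.32-fold lower, 1.28 to 1.36). Haem oxygenase (Hmox1), which frees iron from haem, went from 70.2 to 115 (1.63-fold, 1.51 to 1.77), while Alas1, the first enzyme of haem synthesis, had 559.9 and 525. The list of haem synthesis and breakdown was near level, with 8 of 14 above 0 (median 0.05). Of 21 genes of oxidative stress, 19 were above 0 (median 0.18) and none reached 2-fold. Beside Hmox1, their largest ratios were those of Srxn1 at 34.9 and 57.2 (1.64-fold, 1.46 to 1.84), Prdx1 at 215 and 349 (1.62-fold, 1.55 to 1.69) and the manganese superoxide dismutase gene Sod2 at 108 and 169 normalized counts (1.57-fold, 1.48 to 1.68).

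Sterol synthesis ran the other way, and did so along the whole pathway. Cells build cholesterol from acetyl-CoA through mevalonate, the farnesyl chain, squalene and lanosterol, and the transcription factor SREBP2 (gene Srebf2) drives the enzymes when membrane sterol is low. All 20 enzymes were below 0, with a median log2 difference of -0.54, and for the list of 27 with its regulators 23 counting intervals lay wholly below 1. Only 1 enzyme passed 2-fold, so the result is a shared shift of modest size, from level at Ebp, with 61.6 and 61.4, to Tm7sf2, a sterol reductase, at 24.8 and 11.9 normalized counts (2.09-fold lower, 1.74 to 2.53).

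In the mevalonate part, Hmgcs1 had a log2 difference of -0.76. Fdps, which makes farnesyl diphosphate, had 1014 and 708 (1.43-fold lower, 1.4 to 1.47). Sqle, the oxygenase that opens the sterol branch, had 198 and 157, Lss, which closes the ring, 170.1 and 102 (1.67-fold lower, 1.56 to 1.78), and Cyp51, which trims lanosterol, 247 and 169. The late enzyme gene Dhcr7 had 139 and 95.1 normalized counts. Of the regulators, Srebf2 had 463 and 377 and the retention factor gene Insig1 241 and 177, while Scap, the escort of SREBP, stood at 83.9 and 94.1 and was the only member of the list above 0. Ebp, Sqle, Cyp51, Dhcr7 and the 3 regulator genes were chosen after their values were seen, to complete the pathway.

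**Figure D3:**
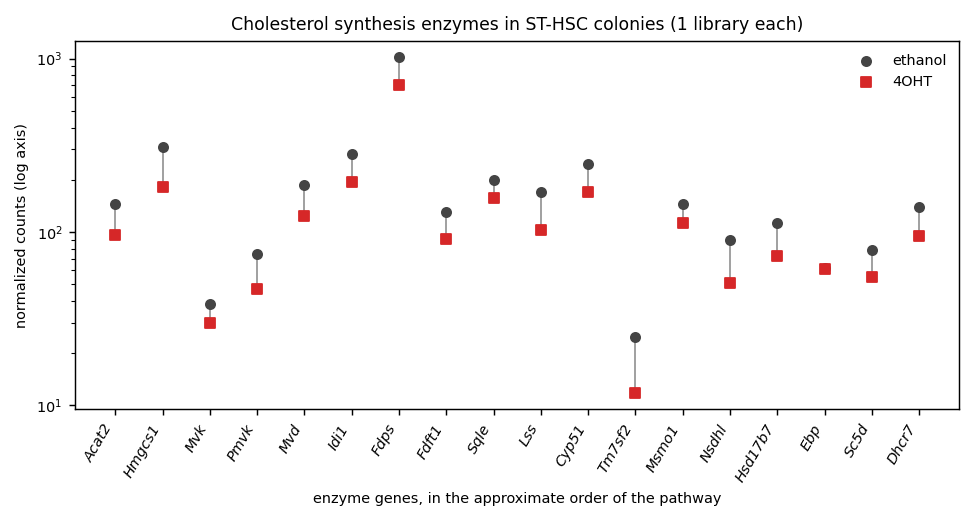
Enzyme genes of cholesterol synthesis are placed in approximate pathway order (x axis) with their normalized counts on a log axis (y axis) in the ethanol library (grey circle) and the 4OHT library (red square), 1 library each. The square lies below the circle for every enzyme drawn except Ebp, where the markers coincide.

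A sterol regulatory element, searched as TCACNCCAC on both strands in the 250 bases before the start, was found before 1 of 19 genes of this list with an entry and before 1.20% of all genes. The 1 match was in Hmgcs1, shown on the strand of the gene with the match in capitals.
Hmgcs1 (chr13:119690184-119690252, plus strand): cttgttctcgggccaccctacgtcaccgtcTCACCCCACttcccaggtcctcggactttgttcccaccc

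Fatty acid synthesis was lower by a smaller median, 15 of 18 below 0 with a median of -0.22. At least 2-fold lower were 2 members, the desaturase gene Scd1 at 282 and 117 (2.41-fold lower, 2.27 to 2.55) and the acetate-activating enzyme gene Acss2 at 44.2 and 20.7 (2.13-fold lower, 1.85 to 2.46). The desaturase gene Scd2, the sister of Scd1, had 2586 and 1971 normalized counts (1.31-fold lower, 1.29 to 1.33), the elongase gene Elovl6 114 and 76.5 (1.49-fold lower, 1.38 to 1.62) and Fads2 205 and 155 (1.32-fold lower, 1.25 to 1.4). The synthase gene Fasn itself had 1617 and 1404 (1.15-fold lower, 1.13 to 1.17). Genes that export cholesterol under the nuclear receptor LXR leaned upward (median 0.24): the transporter gene Abcg1 went from 83.2 to 145 normalized counts (1.75-fold, 1.62 to 1.88), and lipoprotein lipase (Lpl) from 221 to 276. The storage enzyme gene Soat1 had 286 and 321, and Lipg, an endothelial-type lipase, was lower at 1660.2 and 1158 (1.43-fold lower, 1.41 to 1.46).

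Targets of p53, the factor that halts or kills damaged cells, were higher in part. Of 43 genes, 9 were at least 2-fold higher, none lower, and 31 were above 0 (median 0.28). At least 2-fold higher were 5 of 17 genes of arrest and feedback, 4 of 15 of repair and metabolism, and 0 of 11 of cell death. Zmat3, an RNA-binding target, went from 10.5 to 49 normalized counts (4.67-fold, 3.91 to 5.61), and the listed target 9030617O03Rik from 14.5 to 35.1 (2.42-fold, 2.05 to 2.86). The death gene Bax went from 78.8 to 121 (1.53-fold, 1.42 to 1.65), while Apaf1, which builds the apoptosome, had 197 and 175. The p53 gene Trp53 itself stood at 139 and 169.8, and Ddb2, a repair gene and classical target, was lower at 5.35 and 3.02, both chosen after their values were seen.

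Genes that signal and repair DNA breaks were not higher: 7 of 41 were above 0, none beyond 2-fold, with a median of -0.15. The repair genes of the list were lower (median -0.24) and the signalling genes near level (-0.04). Brca2, which loads the recombinase on broken ends, had 34.9 and 21.1 normalized counts (1.66-fold lower, 1.43 to 1.92), its partner gene Palb2 13.7 and 9.13 (1.5-fold lower, 1.19 to 1.89), and Rbbp8, which trims the ends, 42.5 and 26.1 (1.63-fold lower, 1.43 to 1.86). The histone gene H2afx, whose product marks breaks, was level at 589.7 and 580.3.

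Regulators of the cycle differed singly. Cyclin D1 (Ccnd1), which drives entry into the cycle, went from 7.44 to 28.5 normalized counts (3.82-fold, 3.08 to 4.78), although Ccnd2 and Ccnd3 stayed at 252 and 259.6 and at 538 and 513. The inhibitor gene Cdkn1b (p27) was lower at 39.8 and 28.6 (1.39-fold lower, 1.22 to 1.58), and of 8 inhibitors only Cdkn1a was above 0. In the BCL2 family, the survival gene Mcl1 was level at 316 and 325, and the mitophagy receptor genes Bnip3 and Bnip3l were lower, at 91.7 and 34.1 (2.69-fold lower, 2.42 to 2.99) and at 141 and 99.7 (1.42-fold lower, 1.32 to 1.52). Bcl2a1d, a survival gene, had 8.14 and 16.4, but 89.1% of its sequence is shared with its sisters.

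Genes of mitosis were lower by small amounts but widely, 53 of 59 below 0 and 34 with counting intervals below 1, none beyond 2-fold (median -0.20). All 19 spindle motor genes were below 0 (median -0.28), kinetochore and chromosome genes had -0.27, and the kinases and cyclins of mitosis only -0.06. The kinetochore scaffold gene Casc5 had 67.7 and 39.7 normalized counts (1.7-fold lower, 1.53 to 1.9), and topoisomerase Top2a, which untangles chromosomes, 612 and 462 (1.32-fold lower, 1.28 to 1.37). DNA replication genes lay closer to level (median -0.06), with Pola1 at 78.2 and 58.3 (1.34-fold lower, 1.22 to 1.47), the S-phase regulator gene E2f2 at 146 and 108 (1.35-fold lower, 1.26 to 1.44) and the maintenance methyltransferase gene Dnmt1 at 486 and 486. Replication-dependent histones, whose transcripts lack a poly(A) tail and are kept by rRNA depletion, had 56 of 64 below 0 (median -0.14). Of these histone genes 2 were at least 2-fold lower, and in MPP2 colonies 60 of 64 were above 0 (median 0.22). The cell-cycle homology region core, TTTGAA on either strand, lay before 17 of 47 mitosis genes (36.2%), and before 12.8% of all genes. It was not particular to mitosis, as it lay before 5 of 9 inducible GTPases, 4 of 8 Schlafen genes and 2 of 5 ISG15 conjugation genes. Shares were smaller for antiviral effectors (17.9%), p53 targets (15.2%), lysosome genes (10.9%) and sterol synthesis (5.26%).

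Most neutrophil genes were lower, without reaching 2-fold. Granule genes had a median of -0.19, which hid a difference between stages: primary granules, filled early in maturation, had -0.06, and secondary and tertiary granules -0.28. Myeloperoxidase (Mpo), the early enzyme, had 4549 and 4357 normalized counts, and elastase (Elane) 1673 and 1272 (1.32-fold lower, 1.29 to 1.34). The later granule genes Ngp and Camp went from 5839 to 3581 (1.63-fold lower, 1.61 to 1.65) and from 449.6 to 240.4 (1.87-fold lower, 1.79 to 1.95). The collagenase gene Mmp8 was higher at 92.9 and 144 (1.55-fold, 1.44 to 1.66), and in all 4 of 12 late granule genes were above 0, Lyz2, which macrophages share, and Hp among them. Genes of neutrophil maturation had 14 of 16 below 0 (median -0.35): the calprotectin genes S100a8 and S100a9 went from 7343 to 5304 and from 8873 to 6315, and the stefin genes BC100530 and Stfa3 from 2199.8 to 1294 and from 180.3 to 90.7. The oxidase that makes superoxide was near level, with Cybb at 879 and 775 and Cyba at 339 and 377 normalized counts.

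The mast cell list split by role. None of the 10 protease and granule genes was above 0 (4 of 10 at least 2-fold lower), while 7 of 14 receptor and signalling genes were above 0 and 3 were at least 2-fold lower. Genes known mainly from mast cells and basophils were among the low ones. Il1rl1, the IL-33 receptor gene, had 11.3 and 5.46 normalized counts (2.06-fold lower, 1.56 to 2.75), and the IgE receptor genes Ms4a2 and Fcer1a, chosen after their values were seen, 7.44 and 2.8 and 2.09 and 0.503. Gata2, a transcription factor of mast cells and stem cells chosen in the same way, had 25.3 and 14.2 (log2 -0.81). Signalling genes common to myeloid cells were not lower: Syk had 304 and 323 and the adaptor gene Lat2 17.5 and 31.1 (1.78-fold, 1.52 to 2.08). Hdc, which makes histamine, had 33.7 and 27.6 (1.22-fold lower, 1.07 to 1.4), and the eosinophil genes Epx and Prg2 stayed low, at 10.6 and 8.05 and 9.94 and 11.1 normalized counts.

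Stem and progenitor markers had 7 of 21 at least 2-fold higher, none lower, and a median of 0.28, which was 0.78 with a constant of 0.1 in place of 0.5 and 0.35 with a mean of at least 5 required. Cd34, an adhesion molecule of progenitors, went from 12 to 27 normalized counts (2.26-fold, 1.88 to 2.72), and Procr, a surface receptor of stem cells, from 4.73 to 10.3 (2.17-fold, 1.62 to 2.95). Thy1 had 19.1 and 34.3 (1.79-fold, 1.54 to 2.09), and Kdr, the VEGF receptor gene, 1.53 and 5.89 (3.85-fold, 2.38 to 6.48). Others did not share this: Prom1 was lower at 116 and 94.1 (1.24-fold lower, 1.15 to 1.33), and Hlf, a stem cell transcription factor chosen after its values were seen, had 9.39 and 6.04. Hoxa9, the best known target of MLL fusions, was at 13 and 49 reads (3.9-fold, 2.08 to 7.83). Only 2 of 8 Hoxa and Hoxb genes in the table passed the filter, and the lower of their log2 differences was 0.01. Of 16 fusion targets outside the Hox clusters 8 were above 0 (median -0.01), and 1 was at least 2-fold higher, at log2 1.18, with 0 at least 2-fold lower. Myb and Jmjd1c stood at 201 and 188 and 94.9 and 67.2, and Msi2 at 39.2 and 28.2 normalized counts (1.39-fold lower, 1.22 to 1.58). Kmt2a and Mllt1 differed by log2 -0.16 and 0.06, and counts by gene symbol do not separate the fusion from its parents. Genes of the MLL and elongation complexes leaned slightly down (median -0.13), Aff4 at 175 and 136 (1.28-fold lower, 1.21 to 1.36). Polycomb genes, whose products silence MLL targets, had a median of -0.06, with Suz12 at 190.3 and 147 (1.29-fold lower, 1.22 to 1.37).

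Energy metabolism differed by small amounts for most genes. Glycolysis genes had 20 of 23 below 0 (median -0.22), with the lactate exporter gene Slc16a3 at 283 and 148 normalized counts (1.91-fold lower, 1.81 to 2.02) and the glucose transporter gene Slc2a3 at 156 and 82.2 (1.9-fold lower, 1.76 to 2.04). The abundant enzymes at the lower end of the pathway were level, Gapdh at 4739.9 and 4712 and Pkm at 2287 and 2361. Genes that respond to low oxygen through HIF had 17 of 19 below 0 and 15 intervals below 1 (median -0.36), and Bnip3 and Selenbp1 were at least 2-fold lower. Among them, Egln3, a sensor of oxygen that marks HIF for destruction, had 129 and 68.6 (1.88-fold lower, 1.74 to 2.03) and Ero1l, an oxidase of protein folding, 597 and 362 (1.65-fold lower, 1.59 to 1.71), whereas Hif1a itself had 197 and 177. Nuclear genes of the respiratory chain were slightly higher, 70 of 88 above 0 (median 0.10), alike in complex I (0.10) and in complexes II to V (0.10). Ndufs8 had 51.8 and 64.8 and Atp5b 1202 and 1307 normalized counts (1.09-fold, 1.06 to 1.11), and no gene of the mitochondrial genome was in the table.

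Machinery of protein production was close to level. Mitochondrial ribosome genes had 57 of 77 above 0 (median 0.08), cytosolic ribosomal protein genes a median of 0.02 and translation factors 0.05. Ribosome assembly leaned further up, 28 of 33 above 0 (median 0.19), with Heatr1, which is needed to make ribosomal RNA, at 199.6 and 283 normalized counts (1.42-fold, 1.35 to 1.49) and Myc at 168 and 174 (1.04-fold, 0.981 to 1.1). Heat shock chaperones had 12 of 16 above 0 (median 0.08), and secretory chaperones (median -0.03) and genes of the amino acid response (0.01) were near level. Among the amino acid response genes Trib3, a pseudokinase, was lower at 14.7 and 8.26 (1.78-fold lower, 1.41 to 2.25), and the cystine importer gene Slc7a11 higher at 161 and 223 (1.38-fold, 1.31 to 1.46). Housekeeping genes had a median of 0.01, with Actb at 12379 and 12312 normalized counts.

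Genes acting outside the cell stood far apart in both directions. Thrombospondin 1 (Thbs1) and the cross-linking enzyme Tgm2 had log2 differences of -2.05 and -2.09, yet 15 of 19 matrix genes were above 0 (median 0.50). Sulf2, which edits heparan sulfate, went from 2.36 to 12.2 normalized counts (5.17-fold, 3.56 to 7.7), and Tgfbi, an adhesion protein, from 110.5 to 236 (2.13-fold, 2.01 to 2.27). Of the matrix proteases, the gelatinase gene Mmp2 went from 5.15 to 25.7 (4.99-fold, 3.87 to 6.49), its activator gene Mmp14 from 5.84 to 15.2 (2.6-fold, 2.01 to 3.38) and the macrophage elastase gene Mmp12 from 79.8 to 187 (2.34-fold, 2.18 to 2.51). Their list median was 0.15, and those at least 2-fold higher were 4 of 19 genes. In arginine metabolism, Nos2 had a log2 difference of -3.05, while Ass1, which rebuilds arginine, had 39.4 and 59.9 (1.52-fold, 1.37 to 1.7) and the importer gene Slc7a2 7.23 and 13 (1.8-fold, 1.41 to 2.31). The checkpoint ligand gene Cd274 (PD-L1) went from 18.6 to 33.8 normalized counts (1.82-fold, 1.56 to 2.12).

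**Figure D4:**
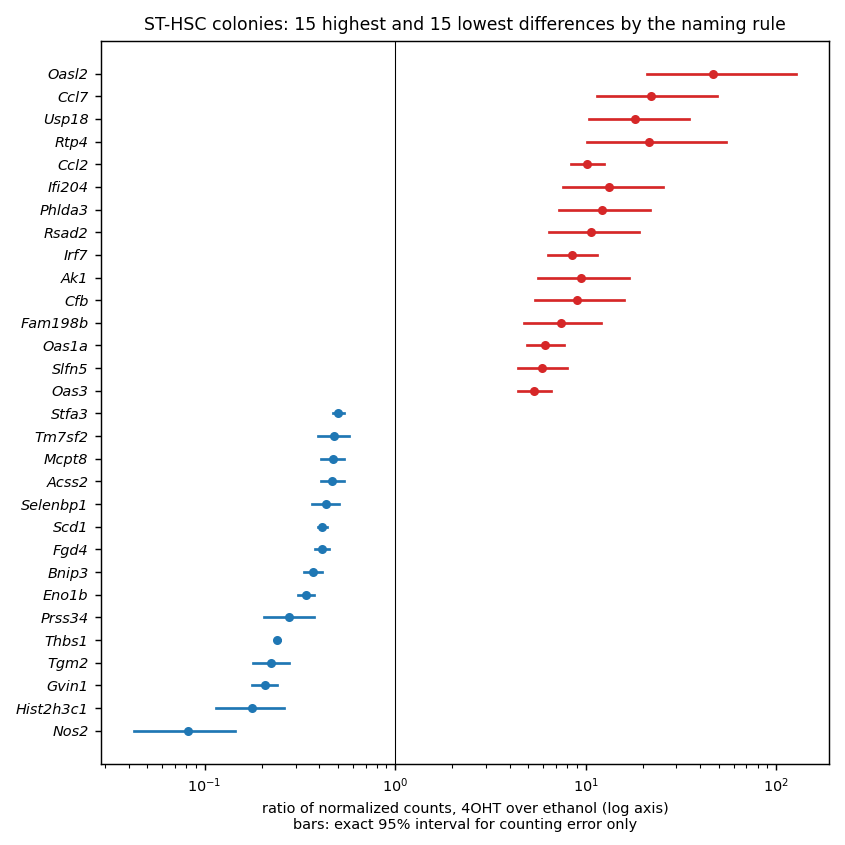
Points are ratios of normalized counts, 4OHT over ethanol in ST-HSC colonies (x axis, log scale), for the 15 highest and 15 lowest log2 differences by the naming rule (y axis), and bars are exact 95% intervals for counting error only. No bar reaches 1, and the intervals are widest for genes nearly silent in one library, such as Oasl2 and Nos2.

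Several extremes of that plot rest on few reads on 1 side: Oasl2 had 6 reads with ethanol and 270 with 4OHT, and Nos2 had 164 and 13. Others rest on many reads, Gvin1 on 1093 and 219. Thbs1 had 17803 and 4150 reads, and its interval is the narrowest drawn (4.15-fold lower, 4.01 to 4.29). Phlda3, a p53 target that restrains AKT signalling, had 16 and 188 reads, and Ccl7 9 and 193. Fam198b, a Golgi-associated protein gene, went from 1.6 to 11.9 normalized counts (7.41-fold, 4.78 to 12). Fgd4, whose product activates the GTPase CDC42, went from 141 to 58.4 (2.42-fold lower, 2.23 to 2.62). Selenbp1, a selenium-binding enzyme, went from 35 to 15.2 (2.31-fold lower, 1.96 to 2.73), with 61.1% of its sequence shared. Measured as a difference in normalized counts and not as a ratio, the 10 most positive differences were those of Ctsd, Eef1a1, Eif4a1, Fth1, Ftl1, Gpnmb, Hspa8, Lyz2, Psap and Vim, of which Gpnmb alone passed 2-fold. The 10 most negative were those of Elane, Fdps, Lipg, Ltf, Ngp, S100a8, S100a9, Scd2, Thbs1 and Tmsb4x, with Thbs1 alone past 2-fold.

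In MPP2 colonies, 150 genes (1.32%) were at least 2-fold higher with 4OHT and 193 (1.70%) at least 2-fold lower, so the upward lean was not shared. Of the 239 genes higher in ST-HSC colonies, 214 were above 0 in MPP2 colonies and 86 were at least 2-fold higher there, which is 36.0% of the ST-HSC genes and 57.3% of the MPP2 genes. Of the 62 lower genes, 52 were below 0 and 24 at least 2-fold lower in MPP2 colonies, 38.7% and 12.4% of the lists, and 3 genes passed 2-fold in opposite directions. The share of all genes above or below 0 in MPP2 colonies was not counted, so the 214 and the 52 stand without that background. With 1 library in each of the 4 groups, a difference between cell types has counting error only, given here as the ST-HSC ratio divided by the MPP2 ratio with a 95% interval.

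Several interferon-related genes had larger ratios in ST-HSC colonies than in MPP2 colonies. The ST-HSC ratio of Irf7 over its MPP2 ratio was 5.93, 4.21 to 8.35, that of Zbp1 3.0, 2.02 to 4.43 and that of Slfn5 3.27, 2.25 to 4.76. In each case the MPP2 ethanol library started higher, for Irf7 at 13.9 normalized counts against 3.69 in the ST-HSC one. Antiviral effectors had a median of 0.63 in MPP2 colonies against 1.03 in ST-HSC colonies, whereas interferon receptors and the JAK-STAT chain had 0.29 against 0.17, and these differences between medians were not tested. The chemokine gene Ccl9, higher in ST-HSC colonies, had 312 and 230.2 in MPP2 colonies with ethanol and 4OHT, and Il1rn had 259 and 227, so both leaned the other way there. Progenitor markers differed likewise: Cd34 had 24.7 and 20.9 in MPP2 colonies (ratio of ratios 2.66, 2.09 to 3.39) and Thy1 38.7 and 39.7. MHC class II was the reverse, with a median of 0.88 in MPP2 colonies, and Cd74 had 49.5 and 118 there against 118 and 177 in ST-HSC colonies (ratio of ratios 0.625, 0.56 to 0.698).

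Sterol synthesis, hypoxia and p53 lists had medians of -0.28, -0.33 and 0.27 in MPP2 colonies, on the same side as in ST-HSC colonies. The late neutrophil granule genes were lower in ST-HSC colonies but not in these MPP2 libraries: Ngp went from 12044 to 11717 and Ltf from 4355 to 5521 normalized counts in MPP2 colonies. Ratios of ratios were 0.631, 0.622 to 0.639 for Ngp and 0.609, 0.596 to 0.622 for Ltf. Mast cell and erythroid lists were far lower in MPP2 colonies, with medians of -1.28 and -1.22 against -0.24 and 0.01 in ST-HSC colonies. The mast cell median in ST-HSC colonies was -0.40 with a constant of 0.1, and the erythroid one -0.09 with a mean of at least 5 required.

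**Figure D5:**
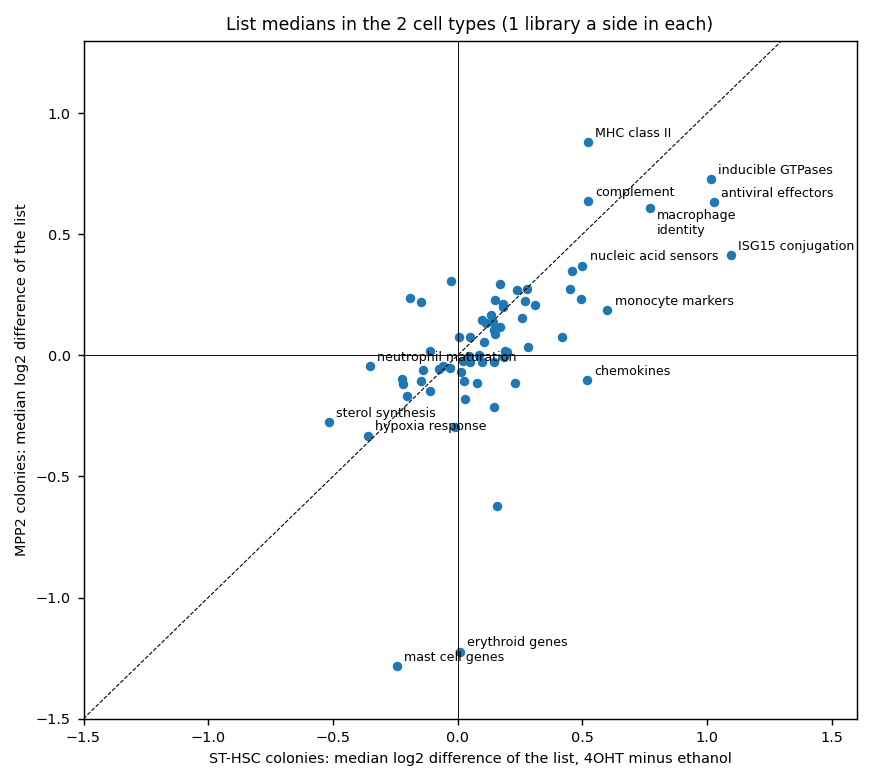
Each point is the median log2 difference, 4OHT minus ethanol, of 1 gene list with 5 or more members past the filter, in ST-HSC colonies (x axis) and in MPP2 colonies (y axis), with a dashed line of equal values. Antiviral and ISG15 lists lie to the right of the line, MHC class II above it, and mast cell and erythroid lists far below it.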

How the data were processed

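RNA-seq of 4 libraries, 1 for each pairing of cell type and treatment, was used as 1 table of 14323 gene symbols. The deposited values are a signal normalized by the authors to library size, and each is a whole number of reads times a step of its column, so reads were recovered by division. The mm10 build, edgeR, RSEM, Bowtie2 and Trimmomatic 0.36 were used, per the submitters' processing notes, in an order and with an annotation not given in the sources used here. Replicates were not pooled, because each group is 1 library.

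Log2 differences used a constant of 0.5, which shrinks those of scarce genes, and genes with a mean of at least 1 over the 4 libraries. Intervals are exact conditional binomial at 95%. Reads without molecular barcodes are not independent molecules, so intervals are a lower limit of the error. The interval of a ratio of ratios is a normal approximation on the log scale, used where each library had at least 5 reads. Shared sequence is the percent of 31-base words in the transcripts of a gene that another gene also holds, from GENCODE M21 on GRCm38, the assembly of mm10, and promoters are RefSeq entries on GRCm38.p6.

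The naming rule required 10 normalized counts in the higher ST-HSC library, left out predicted, clone-named and small RNA genes, and took the 15 highest and 15 lowest log2 differences and the 10 largest changes in counts each way. The rule added, in each list, the 4 members with the largest difference and the 2 with the highest level, and every member of lists with 5 or fewer. Members, lists and rules were chosen with earlier results of these data known. Some members enter the list totals and are not reported here by name. The scripts were tested on simulated reads. Software was matplotlib 3.10.9, scipy 1.17.1, pandas 2.3.3 and numpy 2.4.6 under Python 3.11.15.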

Additional observations from a re-analysis of the deposited data

Results flagged for a closer look

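Eno1b, a copy of the glycolytic enzyme gene Eno1, differed in opposite directions in the 2 cell types. Its log2 difference, 4OHT minus ethanol, was -1.54 in ST-HSC colonies (129 and 43.9 normalized counts) and 1.66 in MPP2 colonies (118 and 374). The difference between the cell types was not tested, since each group has 1 library, and 89.0% of the sequence of Eno1b occurs in another gene.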

How the results depend on the processing

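The counts of changed genes depend on how scarce genes are treated. With a constant of 2 in place of 0.5, 139 genes were at least 2-fold higher and 15 lower, and 24 and 3 passed 4-fold. With a constant of 0.1, 108 were at least 2-fold lower and 74 at least 4-fold higher. With a mean of at least 5 required, 125 were higher and 30 lower, and 26 were at least 4-fold higher. Higher genes made up 79.4% of 2-fold calls, and 90.3% with a constant of 2. Scaling to total reads, median-of-ratios size factors, and removal of the GC or length trend (the last added after seeing the data) left all 4 counts within 1.5 times. No scaling moved the median of all genes by 0.1. Of the 74 named genes beyond 2-fold, 10 fell under it with a constant of 2, 2 with the GC trend removed, 1 with size factors and 0 under each other setting. The medians of 8 lists changed sign under some setting, and for 6 of these the median was within 0.1 of 0 and ran from -0.09 to 0.05 over the settings. The other changes of sign were in lymphoid genes (-0.46, and 0.31 with a mean of at least 5) and stromal and endothelial genes (-0.44, and 0.18 with no filter), each with 4 members past the filter. The cause was not tested. No paired analysis was possible because each group has 1 library.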

Other observations

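About as many of the genes at least 2-fold higher in ST-HSC colonies lay outside the gene lists (120) as inside them (119), and 40 of the 62 lower genes lay outside. The genes named here were chosen after their values were seen. Several higher ones are surface proteins or secreted factors of myeloid cells: Anpep, the aminopeptidase CD13, had 12.7 and 51.5 normalized counts (4.04-fold, 3.43 to 4.78), and the heparan sulfate carriers Sdc3 and Sdc4 had 4.94 and 22.8 and 5.84 and 12.4. Ms4a6d, a relative of the listed monocyte gene Ms4a6c, had 10.1 and 40.2 (3.99-fold, 3.32 to 4.82). Pdpn (podoplanin) had 4.87 and 15.8 and Cmklr1, a chemerin receptor of macrophages, 4.8 and 13.9. Irg1, which makes the antimicrobial metabolite itaconate, had 17.6 and 51.2 (2.91-fold, 2.52 to 3.37).

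Some genes outside the lists moved alike in both cell types. The semaphorin receptor genes Plxna1 and Plxnb2 had log2 differences of 1.28 and 1.08 in ST-HSC colonies and 1.63 and 1.67 in MPP2 colonies. The secreted factor gene Angptl2 had 1.95 and 1.73, and Myof, a membrane repair protein, 1.56 and 1.18. Each rests on 1 library a side, and the share of macrophages in the colonies, whose markers moved in the same direction, was not tested for its part in these values.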
